A study of Mus musculus with 12 samples.

Results

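The 9 genes described here are the core of the Hedgehog pathway: the ligands Shh, Ihh and Dhh, the receptor Ptch1, the decoy receptor Hhip, the signal transducer Smo and the transcription factors Gli1, Gli2 and Gli3. They were taken by name from a table of 23284 genes, all 9 were present, and all 9 were among the 15096 genes tested. The table holds RNA sequencing of whole prostate tissue from mice at 4 months of age, with 6 libraries of wild-type animals and 6 of animals that carry a null allele on both chromosomes, here named null. All animals were hybrids of 129/SvImJ and C57Bl/6J. The labels give neither how the null allele was made nor whether each library came from its own animal, so p-values speak only of the variation among libraries, part of which may be technical.

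Hedgehog ligands are secreted proteins that bind Ptch1 on a receiving cell. Ptch1 otherwise holds Smo inactive, and once Smo is released the Gli proteins turn from repressors into activators of target genes. Gli1, Ptch1 and Hhip are themselves target genes, so their RNA is commonly read as a measure of pathway output. In the prostate the ligand is made mainly by epithelium and the response is mainly stromal, and the pathway is known for its part in the budding of prostatic ducts.

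Values are log2 expression as deposited, and a fold is given as 2 to the power of a difference. The values look variance-stabilised, a form in which differences of low genes are compressed, so folds are approximate and may understate the change of low genes. The table gives no total of reads, and depth is therefore unknown. Undetected genes were taken as 1101 olfactory receptor genes. Their values, pooled over genes and libraries, had a median of 2.85, and 95% of these values lay under 3.5 on this scale. The libraries of each genotype were split into 2 sets of 3. In the wild type these are libraries 1 to 3 and 4 to 6. In the null they are libraries 1, 2 and 5 and libraries 3, 4 and 6. Of all such splits, this one was taken because a library of each set lay nearest to an equal mix of the others. That closeness was therefore selected for and does not by itself show that libraries are mixes. In each set 1 library lay close to an equal mix of the others, at a median distance of 0.0293 to 0.0361 over 3633 genes, against 0.0388 to 0.112 between libraries of a set and 0.103 to 0.169 between sets of a genotype. In wild-type libraries 1 to 3 that distance, 0.0361, was little under the 0.0388 of the closest pair. The labels do not say whether libraries are independent. With the sets as a random block, limma gave a consensus correlation within sets of 0.503, for sets that were chosen by closeness. If libraries of a set are not independent, p-values over 12 libraries are too small. The named Hedgehog pathway genes called over 12 libraries are therefore also given over the 4 set means. Of the genes named as not called, none passed over set means. The exact permutation tests of pairs, lists and relative values treat all libraries as independent. As a check of the labelled tissue, the 4 prostate secretory genes Pbsn, Sbp, Msmb and Tgm4 averaged 17.91 to 18.06 in wild-type and 11.95 to 12.49 in null libraries, and a list of 6 seminal vesicle genes averaged 3.56 to 5.93 and 11.7 to 15.6. In wild-type libraries the seminal vesicle genes were uneven, with Svs2 at 4.52 to 11.3 and Svs5 at 4.00 to 9.22, but Svs3b at 2.72 to 3.53. The 4 secretory genes were unequal, with differences of -15.04 for Sbp, -5.62 for Msmb and -2.15 for Pbsn, but of -0.39 for Tgm4, whose genotypes overlapped (limma adjusted p = 0.00291, and 0.285 over set means).

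Gli1, Hhip, Shh and Ptch1 were higher and Smo was lower in null prostate, while Ihh, Dhh, Gli2 and Gli3 did not pass the test. Of the 9 genes, 4 rose, 1 fell and 4 were not called, where called means a limma adjusted p under 0.05 over all tested genes. Of all tested genes 53.1% were called, 28.0% higher and 25.1% lower, so 5 called of 9 is near the background and is not a result about the pathway as a whole. Higher and lower calls were 4224 and 3789 as deposited but 3367 and 4869 after upper quartile scaling, and the same 5 Hedgehog genes were called in the same directions under that scaling. Over set means Gli1 and Hhip passed, against 14.5% of all tested genes. The genotypes did not overlap in 2 of the 9 genes, Gli1 and Smo, against 32.6% of all tested genes. The median difference of the 9 genes was 0.26, and that of all tested genes was 0.012.

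**Figure D1:**
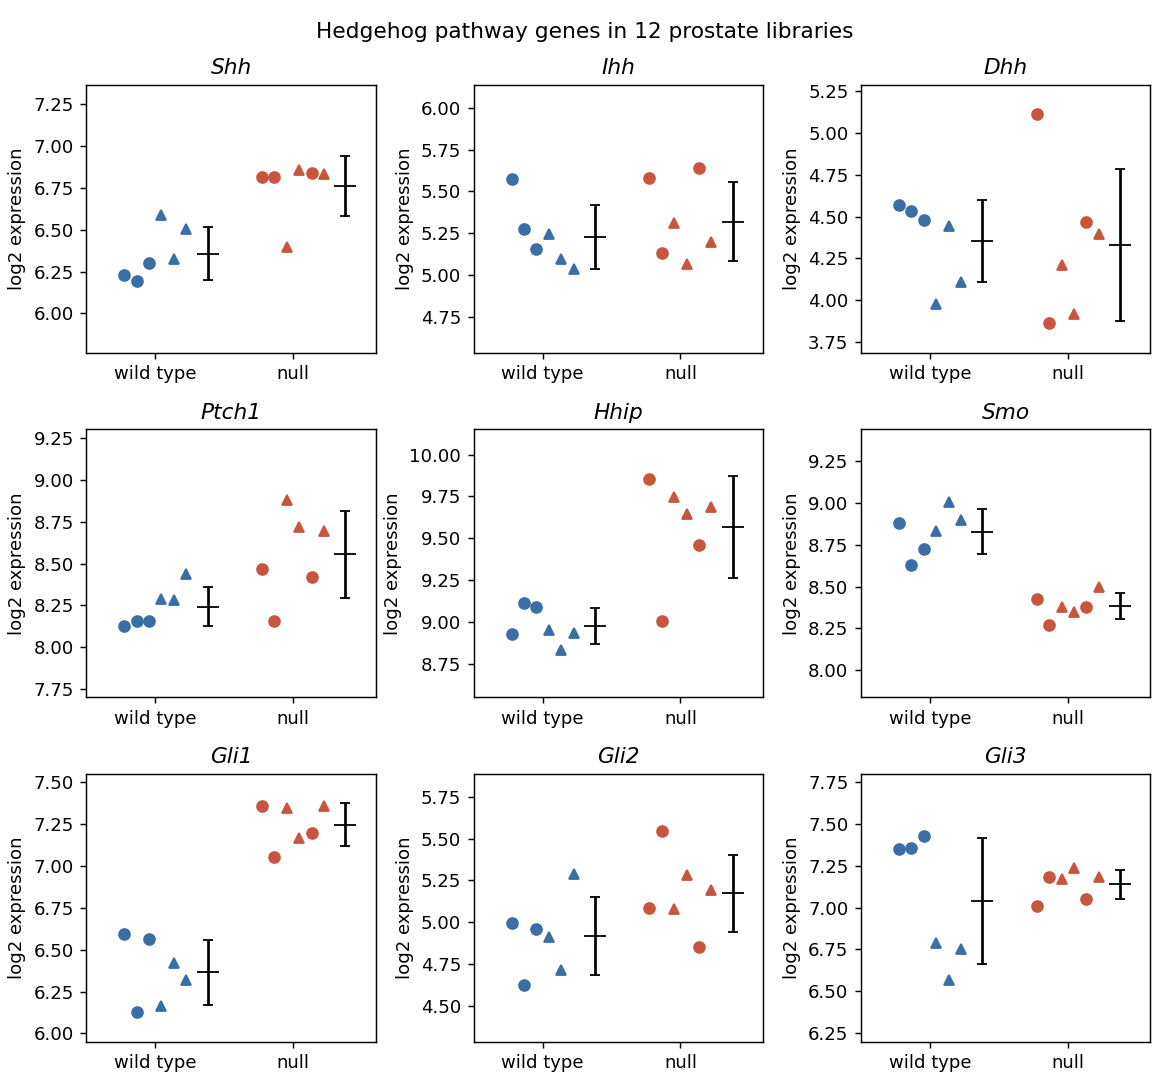
Log2 expression of the 9 Hedgehog genes in 6 wild-type (blue) and 6 null (red) libraries, with circles and triangles for the 2 sets of each genotype, black bars for the mean and SD, and the same span of log2 units in each panel. In Gli1 all null libraries (7.05 to 7.36) lie above all wild-type libraries (6.13 to 6.59), in Smo all lie below, and in Gli3 the wild-type sets lie on either side of the null libraries.

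The ligands differed among themselves. Shh, the ligand known for prostatic duct formation, stood at 6.19 at the lowest, 6.31 at the median and 6.59 at the highest of the wild-type libraries. In null libraries it stood at 6.39, 6.83 and 6.86. In 5 of 6 null libraries Shh was above every wild-type library, and null library 3, at 6.39, lay inside the wild-type range. Shh rose by 0.40 (SE 0.105), a 1.32-fold difference, with adjusted p = 0.00500 over 12 libraries. Over set means the adjusted p was 0.182, with a 95% interval of the difference from -0.040 to 0.85, and the exact two-sided permutation test over libraries gave p = 0.00649. Without null libraries 1, 2 and 5 the difference was 0.34 (limma adjusted p = 0.0536). When wild-type libraries 1 to 3 were left out it was 0.29 (limma adjusted p = 0.0843).

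Ihh, the ligand best known from growing cartilage, ranged from 5.03 to 5.57 with a median of 5.20 in wild-type libraries and from 5.06 to 5.64 with a median of 5.26 in null libraries. The genotypes overlapped almost fully, with a difference of 0.090 (95% interval -0.20 to 0.38, limma adjusted p = 0.598). Dhh, the ligand of Sertoli and Schwann cells, ranged from 3.98 to 4.57 in wild-type and from 3.86 to 5.11 in null libraries. Its difference was -0.024 (95% interval -0.45 to 0.41, limma adjusted p = 0.931) and its lowest values lay little above the range of undetected genes. Dhh reached 4 in 9 of 12 libraries, the number that kept it in the test. Whether Ihh and Shh differed in their genotype difference was tested within libraries, and Ihh minus Shh changed by -0.31 (exact permutation p = 0.0974, the same after adjustment over 6 pairs).

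Of the receptors, Hhip changed most. Hhip is a membrane protein that binds all Hedgehog ligands and keeps them from signalling, and its gene is induced by the pathway. It stood at 8.83, 8.94 and 9.11 (lowest, median and highest) in wild-type libraries and at 9.01, 9.66 and 9.86 in null libraries. Of 6 null libraries, 5 were above every wild-type library, and null library 2, at 9.01, was inside the wild-type range. Hhip rose by 0.59 (SE 0.117), a 1.51-fold difference, with limma adjusted p = 0.000756 over 12 libraries and 0.0314 over set means. The exact permutation p was 0.00649. With the sets as a random block it did not pass (limma adjusted p = 0.0519).

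Ptch1, the receptor and itself a target gene, stood at 8.13, 8.22 and 8.44 in wild-type libraries and at 8.16, 8.58 and 8.88 in null libraries. Null libraries 3, 4 and 6 stood highest, at 8.69 to 8.88, while null libraries 1, 2 and 5 stood at 8.16 to 8.47 and overlapped with the wild type. Ptch1 rose by 0.31 (SE 0.106), with limma adjusted p = 0.0217 over 12 libraries. It did not pass over set means (limma adjusted p = 0.257, 95% interval -0.11 to 0.73), and without null libraries 3, 4 and 6 its difference was 0.11 (limma adjusted p = 0.362). Without null libraries 1, 2 and 5 it was 0.52 (limma adjusted p = 0.000155), and without null replicate 3 alone it was 0.25 (limma adjusted p = 0.0507). Without wild-type libraries 1 to 3 it was 0.22 (limma adjusted p = 0.218).

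Because Hhip and Ptch1 moved in the same direction as Gli1, the 250 bases before their annotated starts are shown, from RefSeq on GRCm38.p6, both on the minus strand and in the gene's own direction. Capitals mark the first run of 9 bases found with the fewest mismatches to the Gli consensus GACCACCCA on either strand. Other runs may tie with it, and in Ptch1 another run does. Hhip is at chr8:80058009-80058258, and Ptch1 at chr13:63565736-63565985, before a start that lies inside the longest annotated form of the gene.

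Hhip: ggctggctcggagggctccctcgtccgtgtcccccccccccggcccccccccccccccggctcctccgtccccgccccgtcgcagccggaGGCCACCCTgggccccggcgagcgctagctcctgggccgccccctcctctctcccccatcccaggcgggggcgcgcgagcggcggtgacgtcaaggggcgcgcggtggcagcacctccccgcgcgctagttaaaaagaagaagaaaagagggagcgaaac

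Ptch1: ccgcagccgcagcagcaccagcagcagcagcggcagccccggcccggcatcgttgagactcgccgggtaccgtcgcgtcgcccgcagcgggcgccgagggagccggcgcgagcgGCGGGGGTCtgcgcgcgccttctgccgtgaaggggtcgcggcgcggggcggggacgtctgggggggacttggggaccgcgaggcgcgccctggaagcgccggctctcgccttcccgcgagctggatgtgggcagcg

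The Hhip run begins 160 bases before the start and differs from the consensus at 2 bases, and the Ptch1 run begins 136 bases before the start and differs at 3. The table held windows of 7 of the 9 genes, without Shh and Gli1. In none of the 7 was the consensus found, exactly or with 1 mismatch, in windows of 300 bases that also take in 50 bases after the start. Of 32851 such windows in the table, 0.253% held it exactly and 6.74% with at most 1 mismatch. With at most 2 mismatches 58.3% did, and so did 5 of the 7, Hhip and Smo among them. A match is a description of these letters only, and more distant sequence was not searched.

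Smo, the seven-pass membrane protein that carries the signal to the Gli proteins, went the other way. It stood at 8.63, 8.86 and 9.01 in wild-type libraries and at 8.27, 8.38 and 8.50 in null libraries. All 6 null libraries lay below all 6 wild-type libraries. Smo fell by 0.45 on the log2 scale (SE 0.0654), a 1.36-fold difference, with limma adjusted p = 5.16e-05 over 12 libraries. The exact permutation p was 0.00216, the smallest that 6 against 6 libraries can give. Over set means the 95% interval was -0.72 to -0.17 but the adjusted p of limma, 0.0507, missed the threshold. Leaving out any set kept the difference between -0.36 and -0.53, with limma adjusted p of at most 0.00199.

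Gli1 showed the largest difference of the 9. Gli1 is an activator only, with no repressor form, and its transcription depends on Hedgehog input. It stood at 6.13, 6.37 and 6.59 in wild-type libraries and at 7.05, 7.27 and 7.36 in null libraries. The gap between the highest wild-type and the lowest null library was wider than the SD in either genotype (0.196 and 0.128, n = 6 each). Gli1 rose by 0.88 (SE 0.102), a 1.85-fold difference with a 95% interval of 0.67 to 1.10 on the log2 scale, and limma gave adjusted p = 5.23e-06. Over set means limma gave adjusted p = 0.0224 and with the sets as a random block 0.00148, and leaving out any set gave differences of 0.82 to 0.95. The exact permutation p was 0.00216. Of all tested genes 9.15% differed by more than Gli1 in either direction, 18.1% by more than Hhip and 41.1% by more than Ptch1.

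Gli2, the main activator downstream of Smo, ranged from 4.63 to 5.29 with a median of 4.94 in wild-type libraries and from 4.85 to 5.55 with a median of 5.14 in null libraries. The ranges overlapped, and the difference of 0.26 (95% interval -0.047 to 0.56) did not pass (limma adjusted p = 0.144). Gli3, the main repressor of the family, split the wild-type sets, with libraries 1 to 3 at 7.35 to 7.43 and the others lower, at 6.57 to 6.79. The null libraries lay between these sets, at 7.01 to 7.24. Over all libraries the difference was 0.099 (95% interval -0.21 to 0.41, limma adjusted p = 0.590). Against wild-type libraries 1 to 3 alone Gli3 was lower in null libraries by -0.24 (limma adjusted p = 0.0390), and against wild-type libraries 4 to 6 alone it was higher by 0.44 (limma adjusted p = 0.00311), so its direction depends on which wild-type libraries are used.

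**Figure D2:**
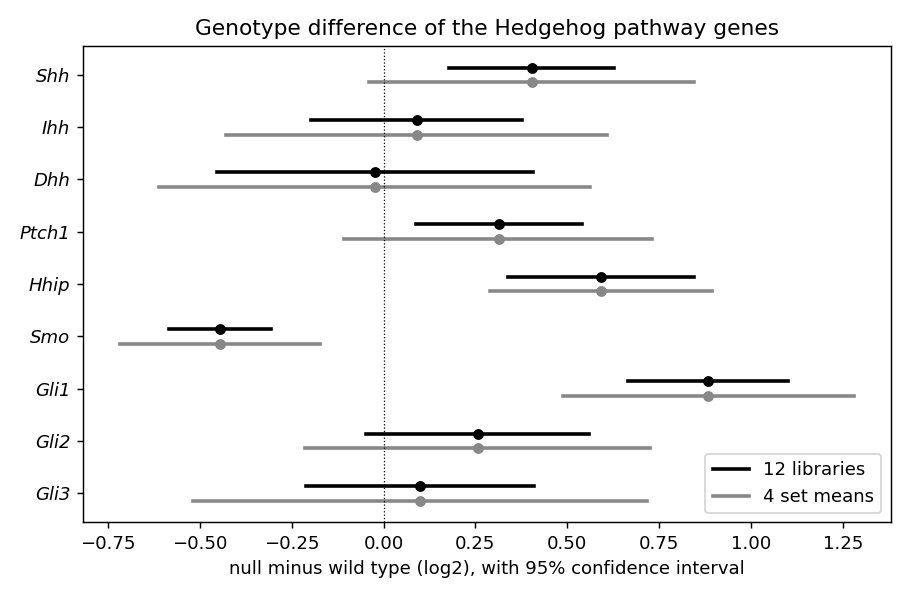
Difference in log2 expression between null and wild-type libraries (horizontal axis) for the 9 Hedgehog genes, with 95% confidence intervals from limma over 12 libraries (black) and over 4 set means (grey), before adjustment for the number of genes. The intervals of Gli1, Hhip and Smo leave out 0 in both fits, those of Shh and Ptch1 only over 12 libraries.

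The target genes did not rise equally. In wild-type libraries the within-library difference Gli1 minus Ptch1 was -1.88 ± 0.261 (SD, n = 6), and in null libraries -1.31 ± 0.200 (SD, n = 6), a change of 0.57 (exact permutation p = 0.00433, adjusted p = 0.0130 over 6 pairs). Gli1 also rose more than Gli2, by 0.63 (exact permutation, adjusted p = 0.0173), and more than Gli3, by 0.78 (exact permutation, adjusted p = 0.0130). Against Hhip the excess of Gli1 was 0.29 and did not pass (exact permutation, adjusted p = 0.0519), while Ptch1 rose less than Hhip, with a change of -0.28 (exact permutation, adjusted p = 0.0487). These tests treat libraries as independent. With 1 set left out, and 3 against 6 libraries, the Gli1 minus Ptch1 change lay between 0.41 and 0.74 and its adjusted p between 0.0476 and 0.0952 by the exact permutation test. Likewise the adjusted p of that test lay between 0.0714 and 0.114 for Gli1 minus Gli2, between 0.0476 and 0.0952 for Gli1 minus Gli3, and between 0.0476 and 0.357 for Ptch1 minus Hhip.

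Levels of different genes can be set side by side only per length. After subtraction of the log2 length in kilobases of the longest coding transcript in GENCODE M21, Smo was highest in wild-type prostate at 6.91 ± 0.134 (SD, n = 6), before Hhip at 5.79 ± 0.107 (SD, n = 6), Ptch1 at 5.29 ± 0.118 (SD, n = 6) and Shh at 4.85 ± 0.157 (SD, n = 6). Next came Gli1 at 4.34 ± 0.196 (SD, n = 6), Gli3 at 4.01 ± 0.377 (SD, n = 6) and Ihh at 3.93 ± 0.191 (SD, n = 6), where both Gli1 and Gli3, and Gli3 and Ihh, lay within the SD of Gli3. Dhh at 2.27 ± 0.245 (SD, n = 6) and Gli2 at 2.19 ± 0.232 (SD, n = 6) were lowest and also lay within their spread. In null prostate Hhip at 6.38 ± 0.303 (SD, n = 6) came within its spread of Smo at 6.46 ± 0.0761 (SD, n = 6), and Gli1 at 5.23 ± 0.128 (SD, n = 6) within its spread of Shh at 5.25 ± 0.180 (SD, n = 6). The deposited values were taken as not scaled for length, which the sources used here do not state, and low values include the floor of the scale, so this order is approximate.

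In whole tissue, fewer cells of a type and less RNA per cell cannot be told apart. The stromal lists, 12 smooth muscle and 10 fibroblast genes, averaged 11.4 to 11.5 in wild-type and 11.1 to 11.8 in null libraries, a difference of -0.051 (exact permutation p = 0.632). By limma over 12 libraries 1 smooth muscle gene rose and 1 fell. Of the fibroblast genes 1 rose and 3 fell, with a median difference of -0.157. No stromal gene passed over set means. The luminal list of 8 genes differed by 0.039 (exact permutation p = 0.673), with 4 members higher and 4 lower by limma. The basal list of 8 genes was higher by 0.79 (exact permutation p = 0.00216), from 7.75 to 7.93 in wild-type and from 8.42 to 8.85 in null libraries, with 7 members higher and 1 not called. Called over 12 libraries were 16.7% of smooth muscle, 40% of fibroblast, 100% of luminal and 87.5% of basal genes, beside 53.1% of all tested genes. Of 5 urothelial genes, 3 were tested and Upk1b and Upk2 rose, while Upk3a and Krt20 stayed under the detection filter, and the list averaged 7.01 to 7.24 in wild-type and 7.77 to 8.30 in null libraries.

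**Figure D3:**
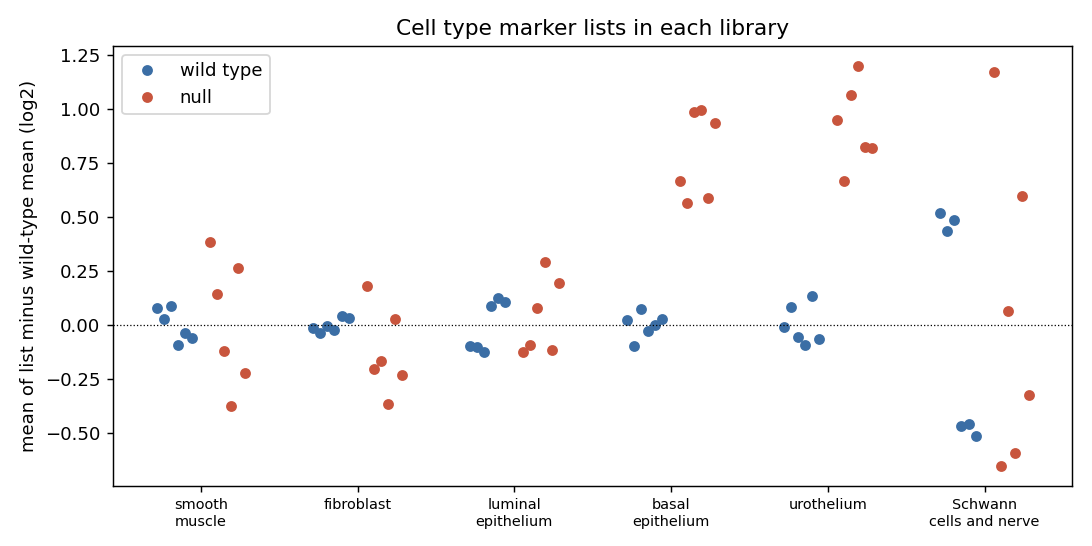
Mean log2 expression of 6 cell type marker lists in each library, as the difference from the mean of the wild-type libraries (vertical axis), for wild-type (blue) and null (red) libraries. The basal and urothelial lists are higher in every null library, and the nerve list splits the wild-type libraries into their sets.

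Relative to the stromal genes of the same library, Gli1 was higher by 0.93 (exact permutation p = 0.00216), Hhip by 0.64 (exact permutation p = 0.00649) and Shh by 0.45 (exact permutation p = 0.0108), and Smo differed by -0.40 (exact permutation p = 0.0130). Ptch1 relative to stroma differed by 0.36, which did not pass (exact permutation p = 0.121). Relative to luminal genes Shh was higher by 0.36 (exact permutation p = 0.0152) and Ptch1 by 0.27 (exact permutation p = 0.00866). Gli1 was higher by 0.84 (exact permutation p = 0.00216) and Hhip by 0.55 (exact permutation p = 0.00649) against luminal genes, and Smo differed by -0.485 (exact permutation p = 0.00216). Ihh, Dhh, Gli2 and Gli3 did not pass against them. The epithelial reference, luminal and basal genes together, rose by 0.41, and with it 9451 of 15096 tested genes were called lower by limma. Against it Gli1 was higher by 0.47 (exact permutation p = 0.00649), while Hhip at 0.18 (exact permutation p = 0.190) and Shh at -0.012 (exact permutation p = 0.929) did not pass. Ptch1 at -0.10 did not pass either (exact permutation p = 0.156). Smo stood at -0.86 (exact permutation p = 0.00216), in the direction in which this reference moves most genes. The basal reference alone rose by 0.79, and with it 13145 of 15096 tested genes were called lower and the median of all genes was -0.78. Values against basal genes are lowered by that rise and are given without a test. They were -0.39 for Shh, -0.48 for Ptch1, -0.20 for Hhip and -1.23 for Smo, and Gli1 stood at 0.094. Of these, Smo was below 0 as deposited too, at -0.45. The part of the basal and urothelial genes in these results was not tested. The part of the seminal vesicle genes was not tested either. The 9 Schwann cell and nerve genes averaged 5.96 to 6.997 in wild-type and 5.83 to 7.65 in null libraries and were not called except Mbp, which fell by 0.41 (limma adjusted p = 0.000510, and 0.0608 over set means).

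**Figure D4:**
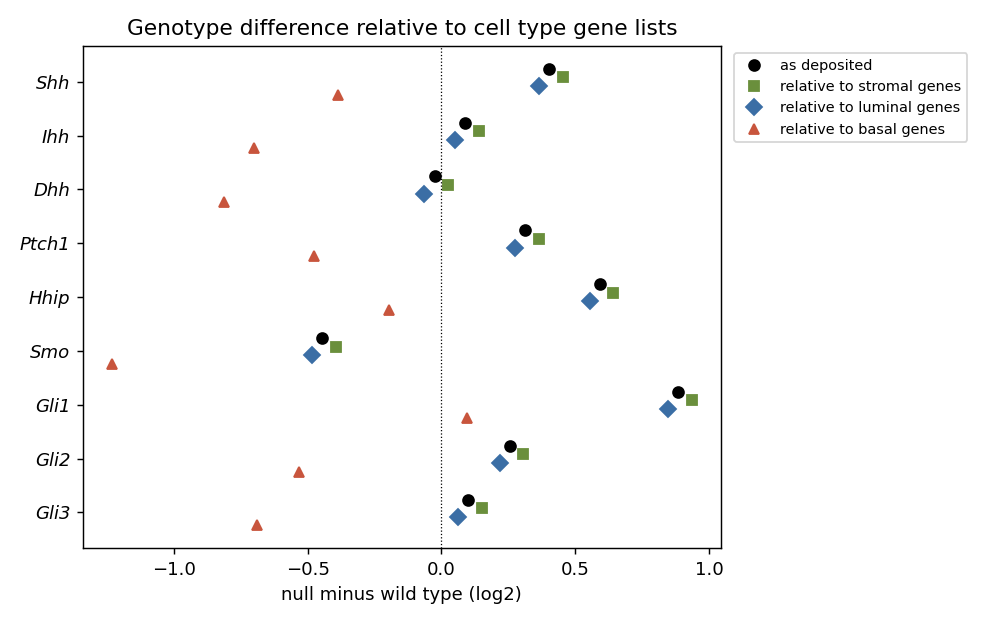
Difference in log2 expression between null and wild-type libraries (horizontal axis) for the 9 Hedgehog genes, as deposited and relative to the mean of stromal, luminal or basal genes of the same library. Stromal and luminal references move the values by at most 0.051, and the basal reference lowers every one by 0.79.

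A further 85 genes of the pathway were examined, of which 78 were tested. Over 12 libraries 25 rose, 17 fell and 36 were not called, or 53.8% called beside the 53.1% of all tested genes. Over set means 4 rose and 4 fell, 8 of 78 beside the 14.5% of all tested genes, a share below that background. Their median difference was 0.10 beside 0.012 for all tested genes. Over 12 libraries the single lists below had from 41.7% to 63.6% called, on either side of 53.1%. Their counts are therefore not results about the lists.

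Among 9 genes of ligand processing and release, 6 were tested, 1 rose and 2 fell. Scube2, a secreted protein that helps release lipid-bearing Hedgehog from cells, ranged from 6.80 to 6.92 in one wild-type set (libraries 1 to 3), from 8.31 to 8.33 in the other, and from 5.81 to 6.15 in the null. It was lowest in null prostate and fell by 1.59 (limma adjusted p = 0.000542, and 0.0915 over set means). If wild-type libraries 4 to 6 were left out the difference was -0.87 (limma adjusted p = 7.7e-05). Ptchd1, a membrane protein placed here only for its patched domain, fell by 2.52 (limma adjusted p = 2.46e-10, and 0.00288 over set means). Disp2, a dispatched-family protein, rose by 0.81 (limma adjusted p = 0.0328, and 0.232 over set means). This call was lost under 15 of 25 alternatives, among them upper quartile scaling (limma adjusted p = 0.0566), no filter (limma adjusted p = 0.0585), and leaving out any of null libraries 1, 4 and 5 or wild-type libraries 4, 5 and 6 (limma adjusted p from 0.0512 to 0.0722). Its difference was 0.23 (limma adjusted p = 0.466) without the second wild-type set, libraries 4 to 6, and 1.39 (limma adjusted p = 0.00101) without the first. Disp1, the main ligand-release protein of the family, was at 2.06 to 3.36 in all libraries, at the level of undetected genes.

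All 12 co-receptor and membrane genes were tested, with 4 higher and 1 lower. Arrb1, an arrestin that binds active Smo, rose from 11.2 to 11.7, by 0.50 (limma adjusted p = 2.90e-06, and 0.0260 over set means). Evc2, a ciliary partner of Smo, rose by 0.35 (limma adjusted p = 0.00406, and 0.174 over set means), and Gpr161, a ciliary receptor that restrains the pathway, rose by 0.53 (limma adjusted p = 0.00573, and 0.185 over set means). Gpr161 did not pass when null libraries 1, 2 and 5 (0.37, limma adjusted p = 0.090) or wild-type libraries 4 to 6 (0.34, limma adjusted p = 0.0983) were left out. The gene that fell was Cdon, a co-receptor that helps present the ligand to Ptch1. Cdon stood at 8.66 to 9.24 in wild-type and 7.69 to 8.32 in null libraries, with no overlap and a fall of 0.91 on the log2 scale (limma adjusted p = 0.000115, and 0.0595 over set means). Its related co-receptors Boc (-0.078, limma adjusted p = 0.478) and Gas1 (0.13, limma adjusted p = 0.139) were not called. Boc and Gas1 are named outside the rule, as relatives of Cdon.

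Of 20 genes that process or inhibit Gli proteins, 8 rose, 3 fell and 9 were not called. Btrc, the ubiquitin ligase subunit that marks Gli3 for processing, fell by 0.59 (limma adjusted p = 3.16e-06, and 0.0300 over set means) and had no overlap between genotypes. Of 3 subunits of protein kinase A, whose phosphorylation of Gli precedes that step, the regulatory subunit Prkar1a rose by 0.35 (limma adjusted p = 5.48e-06) and the catalytic subunit Prkaca fell by 0.23 (limma adjusted p = 0.000118). The other catalytic subunit, Prkacb, differed by 0.068 (limma adjusted p = 0.186). Itch, a ubiquitin ligase that acts on Gli1 protein, rose by 0.31 (limma adjusted p = 0.000114). Prkar1a, Prkaca and Itch did not pass over set means (limma adjusted p = 0.0717, 0.145 and 0.0806). Sufu, the main inhibitor of Gli proteins, differed by -0.14 (limma adjusted p = 0.0949). Sufu and Prkacb are named outside the rule.

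Of 29 genes of the primary cilium, where Smo and the Gli proteins meet, 7 rose, 9 fell and 13 were not called, with a median difference of -0.014. Tulp3, which carries receptors including Gpr161 into the cilium, fell by 0.55 (limma adjusted p = 4.08e-05, and 0.0473 over set means). Among intraflagellar transport genes Ift80 rose by 0.53 (limma adjusted p = 6.76e-05) and Ift52 fell by 0.31 (limma adjusted p = 0.000204), and the transition zone gene Cc2d2a rose by 0.50 (limma adjusted p = 0.000144). None of these last 3 passed over set means (limma adjusted p = 0.0634, 0.0841 and 0.0514).

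Of 15 genes known as Hedgehog targets in some tissues, 11 were tested, 5 rose, 2 fell and 4 were not called. Nr2f2, an orphan nuclear receptor, stood at 10.5 to 10.7 in wild-type and 11.3 to 11.4 in null libraries and rose by 0.71 (limma adjusted p = 7.20e-09, and 0.00982 over set means). Jag2, a Notch ligand, rose by 0.82 (limma adjusted p = 3.49e-07, and 0.0149 over set means). In the other direction, the mesenchymal factor Foxf2 fell by 1.87 (limma adjusted p = 8.25e-06, and 0.0111 over set means), from 4.84 to 5.90 in wild-type to 2.70 to 3.92 in null libraries. In the null, Foxf2 lay at or little above the level of undetected genes, so its fall may be understated. No null library reached the filter value of 4, so Foxf2 entered the test through the wild-type libraries alone. Its p-values and its place among the genes that fell rest on that and are not separate support. Igfbp6, a binding protein of insulin-like growth factors, fell by 0.51 (limma adjusted p = 0.00184, and 0.122 over set means), or by 0.26 without null libraries 3, 4 and 6 (limma adjusted p = 0.0154).

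**Figure D5:**
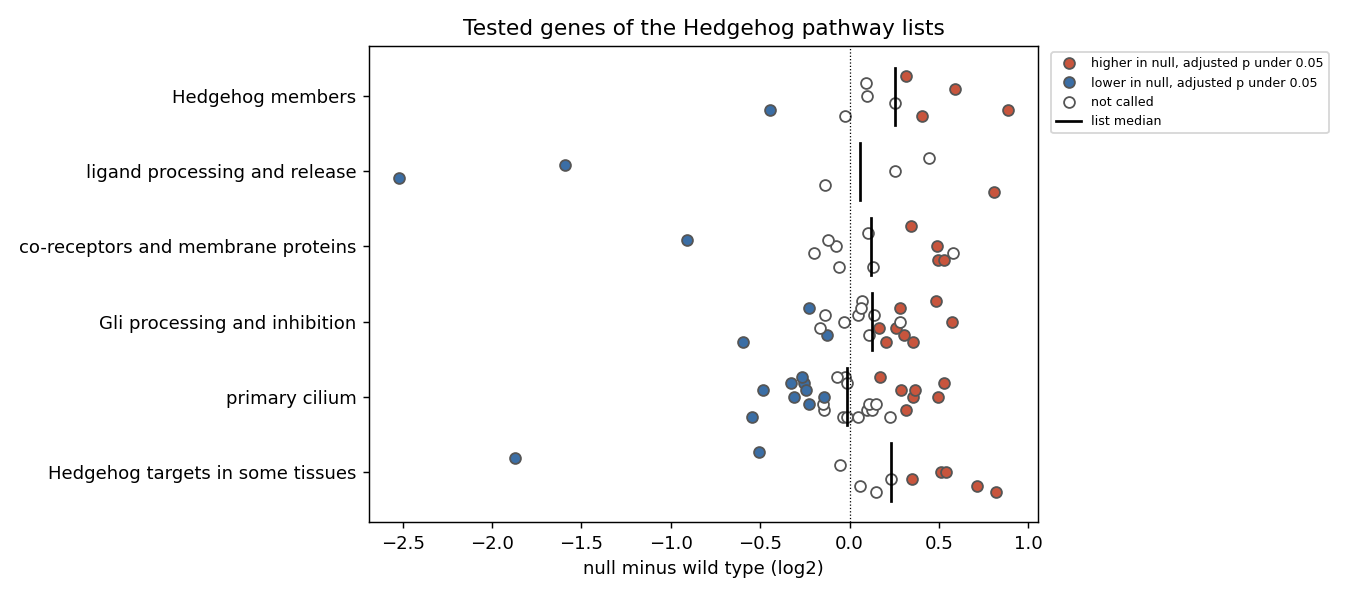
Difference in log2 expression between null and wild-type libraries (horizontal axis) for the tested genes of 6 Hedgehog lists, where each point is a gene, red and blue are called higher and lower by limma over 12 libraries, white is not called, and the black bar is the list's median. The 78 genes beside the 9 members scatter to either side of 0, from Ptchd1 at -2.52 to Jag2 at 0.82.

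The genes whose levels ran most like Shh and Gli1 were found by the root mean square difference of gene-centred log2 values over the 12 libraries, as a description without a test. For Shh these were Syt3 (0.0704), a synaptotagmin, Fosl2 (0.0876), a subunit of the AP-1 transcription factor, and Mgat4a (0.101), a glycosyltransferase, beside a root mean square of 0.253 for Shh around its own mean. For Gli1 they were Hyal1 (0.105), a hyaluronidase, Gpc6 (0.115), a glypican, and Cd81 (0.128), a tetraspanin, beside 0.467 for Gli1 itself.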

How the data were processed

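Prostate RNA was enriched by poly-A pull-down, prepared with a TruSeq RNA kit and read on an Illumina HiSeq, per the labels' protocols. Per the submitters' processing notes the tools were CASAVA 1.8.2, TopHat2 2.0.4, Cufflinks 2.0.2 and DESeq, with build mm9 and no roles stated. The authors deposited log2 values (1.07 to 21.6). Their transformation, scaling and counting are not given in the sources used here. Depth is unknown, and no count test was used.

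Null and wild-type libraries were compared with limma 3.58.1 (R 4.3.3, trend and robust moderation) on the deposited values, with genotype as the only term. Genes needed a value of 4 or more in 6 or more libraries, and p-values were adjusted by Benjamini-Hochberg over all 15096 of them, with a threshold of 0.05. Single genes, pairs and list means were tested by exact two-sided permutation over libraries (scipy 1.17.1), adjusted only over the 6 pairs. These scripts were tested on simulated data. Sets of libraries are the split of a genotype with the smallest summed distance of 1 library per set to the equal mix of the others. Distances were taken over genes with a mean of 10 or more, and the sets are not groups of the study.

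The members and lists were chosen with earlier results of these data known. Named genes are the 9 members, up to 4 called genes of a list by adjusted p (with fewer than 2 called, also the 2 of highest mean), and the 3 genes most like Shh and Gli1. Disp1, Upk3a, Krt20, Svs2, Svs5, Boc, Gas1, Sufu and Prkacb lie outside that rule and were chosen after their values were seen. RefSeq promoters (GRCm38.p6) matched 7 of 9 members by symbol, and protein sequences were not used here. The level of the targeted gene is not reported here. Alternatives changed the scaling, moderation, filter or test, used sets as means or as a random block, took values relative to cell type lists, or left out sets or libraries. Luminal and basal references, and the fit without 4 libraries nearest to mixes, were added after seeing the data.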

Additional observations from a re-analysis of the deposited data

Results flagged for a closer look

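Shh in null library 3 stood at 6.39, apart from the other null libraries, whose lowest was 6.81. The gap of 0.42 was 0.908 of the range of the 6 null libraries. This was 1 flag in 18 groups of 6 libraries checked, where chance flags about 1 in 20. Without null replicate 3 Shh was higher by 0.48 (limma adjusted p = 0.000837).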

How the results depend on the processing

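Gli1 and Smo kept their call and direction under 28 of 29 alternatives each, Hhip under 26, Shh under 22 and Ptch1 under 19. The exceptions for Gli1 and Smo were Gli1 relative to basal genes (0.094) and Smo over set means. Ptch1 also did not pass an exact rank-sum test (adjusted p = 0.112). No call of the permutation tests changed with medians in place of means. Of the 9 members 5 were called as deposited, and 2 over set means, with the sets as a random block, or relative to all epithelial genes; 3 were called without the 4 libraries nearest to mixes, where Shh and Ptch1 did not pass. Over set means 2195 genes and 8 other pathway genes were called, and 4984 and 24 with the block, beside 8013 and 42. Of all 15096 genes 10341 were called relative to epithelial genes (9451 lower) and 5693 without the libraries nearest to mixes.

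Relative to all epithelial genes, which themselves rose by 0.41, Shh stood at -0.012, Ihh at -0.32, Ptch1 at -0.10, Gli2 at -0.16 and Gli3 at -0.32. Relative to basal genes Shh stood at -0.39, Ihh at -0.70, Ptch1 at -0.48, Gli2 at -0.53, Gli3 at -0.69 and Hhip at -0.20. Genes near 0 changed sign elsewhere. Ihh was at -0.039 without null libraries 1, 2 and 5, -0.016 without wild-type libraries 4 to 6 and -0.012 without the libraries nearest to mixes. Dhh was at 0.074 after quantile normalization, 0.026 relative to stroma, 0.13 without null libraries 3, 4 and 6, 0.15 without wild-type libraries 1 to 3, and from -0.18 to 0.069 with each library left out. Gli3 was at -0.24 without wild-type libraries 4 to 6. The cause was not tested. At a filter of 5, Dhh and Foxf2 were not tested. No paired analysis was possible because the labels give the libraries no shared replicate numbers.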
